A study of Mus musculus with 2 samples.

Results

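Long reads of mouse muscle RNA were given by the authors' annotation to 55 autosomal genes of the reference catalogue without a single read that followed a complete chain of exons. These genes were chosen by their reads: an annotated gene on an autosome, 20 or more reads summed over both libraries, and 0 reads in the classes that describe a whole exon chain. They were 55 of the 6620 annotated autosomal genes with at least that many reads, and the other 6565 genes had 1 or more complete reads. The absence of complete reads and the read minimum are therefore the choice itself and not a result. What is described here is what kind of genes they were, which reads they held, where those reads lay and how they differed between the libraries.

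A long read covers much or all of an RNA molecule, so the order of its introns can be compared with that of annotated transcripts. In the TALON scheme used in the deposited files, a Known read follows an annotated intron chain, an NIC read joins annotated splice sites in a new combination, and an NNC read has at least one splice site outside the annotation. An ISM read (incomplete splice match) follows only a stretch of an annotated chain. A Genomic read overlaps a gene without following its chain, as a read from intron sequence or from unspliced RNA would. Annotated genes of several kinds can collect such reads: antisense genes lie on the opposite strand of another gene, read-through genes join the exons of neighbouring genes into one transcript, and processed pseudogenes are intronless copies of messenger RNAs that were reverse transcribed and inserted elsewhere in the genome.

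The series held 2 long-read libraries of the gastrocnemius, the large calf muscle, from female B6CASTF1/J mice 25 days old. Each library was made from 2 µg of total RNA with spike-in RNAs added, and the labels call them biological replicates 1 and 2. Their sample descriptions number the animals 3 and 4, while both cite 1 donor record. With 1 group there was no condition to compare. The p-values below measure only how the reads of these 2 libraries differ, and animal and library preparation cannot be told apart.

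Without spike-ins the libraries held 1069771 and 1557594 reads, so that a floor of 3 reads was 2.80 and 1.93 CPM (the usual count scaled to library depth). Genomic reads made up 2.19% of replicate 1 and 5.38% of replicate 2, and ISM reads 8.31% and 11.7%. NNC reads, which count as complete, made up 18.3% and 2.50%. All 8 skeletal muscle markers examined had reads in both libraries, with a summed level of 191934 and 222947 CPM. The 7 lists for other cell types were far lower. Fibroblast genes summed to 1570 and 1809 CPM and leukocyte genes (2 of 3 with reads in both) to 36.5 and 55.2, both higher in replicate 2. The other 5 lists were lower in replicate 2: blood at 990 and 345, adipocyte at 327 and 86.7, smooth muscle at 125 and 46.9, Schwann cell at 119 and 75.1 and endothelial at 57.0 and 21.8. The part of these differences in the results was not tested.

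The most read members can be read directly from sequence. For the 3 genes with most reads, Usp50, Cfap77 and AC154200.1, the leading model (the model with most reads in either library) began on the very last annotated base of a pseudogene. The last 30 bases of each pseudogene are shown 5′ to 3′ with the bases of its parent gene aligned to them, from GENCODE M21 transcripts on mm10. Capitals mark the bases that belong to the parent's annotated stop codon.
Gm10774: ctgctgaactatgcacccctagagaagTGA
Polr2l: ctgctgaactatgcacccctagagaagTGA
Gm13394: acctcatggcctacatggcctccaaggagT
Gapdh: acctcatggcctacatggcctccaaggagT
Oaz1-ps: gagagagaggacccgggtgaggaggacTAG
Oaz1: gagagagaggacccgggtgaggaggacTAG

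In each pair all 30 bases were identical. The annotated pseudogene stopped at the third base of the parent's stop codon in Gm10774 and Oaz1-ps and at its first base in Gm13394. The parents' own transcripts went on past that point: the aligned stretch was bases 185 to 214 of 1650 in Polr2l, 1063 to 1092 of 1272 in Gapdh and 729 to 758 of 1044 in Oaz1.

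Protein-coding genes were the largest class among the 55, with 29 genes (52.7%), and antisense genes came next with 14 (25.5%). The rest were 7 lincRNAs (long intergenic noncoding RNAs), 3 genes typed as processed transcripts, 1 pseudogene and 1 snoRNA. Among the 6565 other genes, 6349 were protein-coding and 31 antisense. Of all protein-coding genes with 20 or more reads 0.455% lacked a complete read, against 31.1% of antisense genes and 16.3% of lincRNAs. These shares describe the choice and were not tested.

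Together the 55 genes held 763 reads in replicate 1 (0.0713% of the library) and 2897 in replicate 2 (0.186%). Reads were found for 52 of them in replicate 1 and 54 in replicate 2, and 51 had reads in both. A member had 20 to 372 reads over both libraries, with a median of 39, against a median of 69 over the other genes. The 15 most read members held 2299 of the 3660 reads (62.8%). Most reads were Genomic: 86.1% in replicate 1 and 89.2% in replicate 2, a mean of 87.6% ± 2.16 (SD, n = 2). Reads of 41 genes were Genomic alone, those of 5 genes ISM alone, and 9 genes had both. By the files' own subtypes, 69 and 192 of the 106 and 314 ISM reads matched the last part of an annotated chain (Suffix), 9 and 28 the first part (Prefix) and 28 and 94 neither (None).

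**Figure D1:**
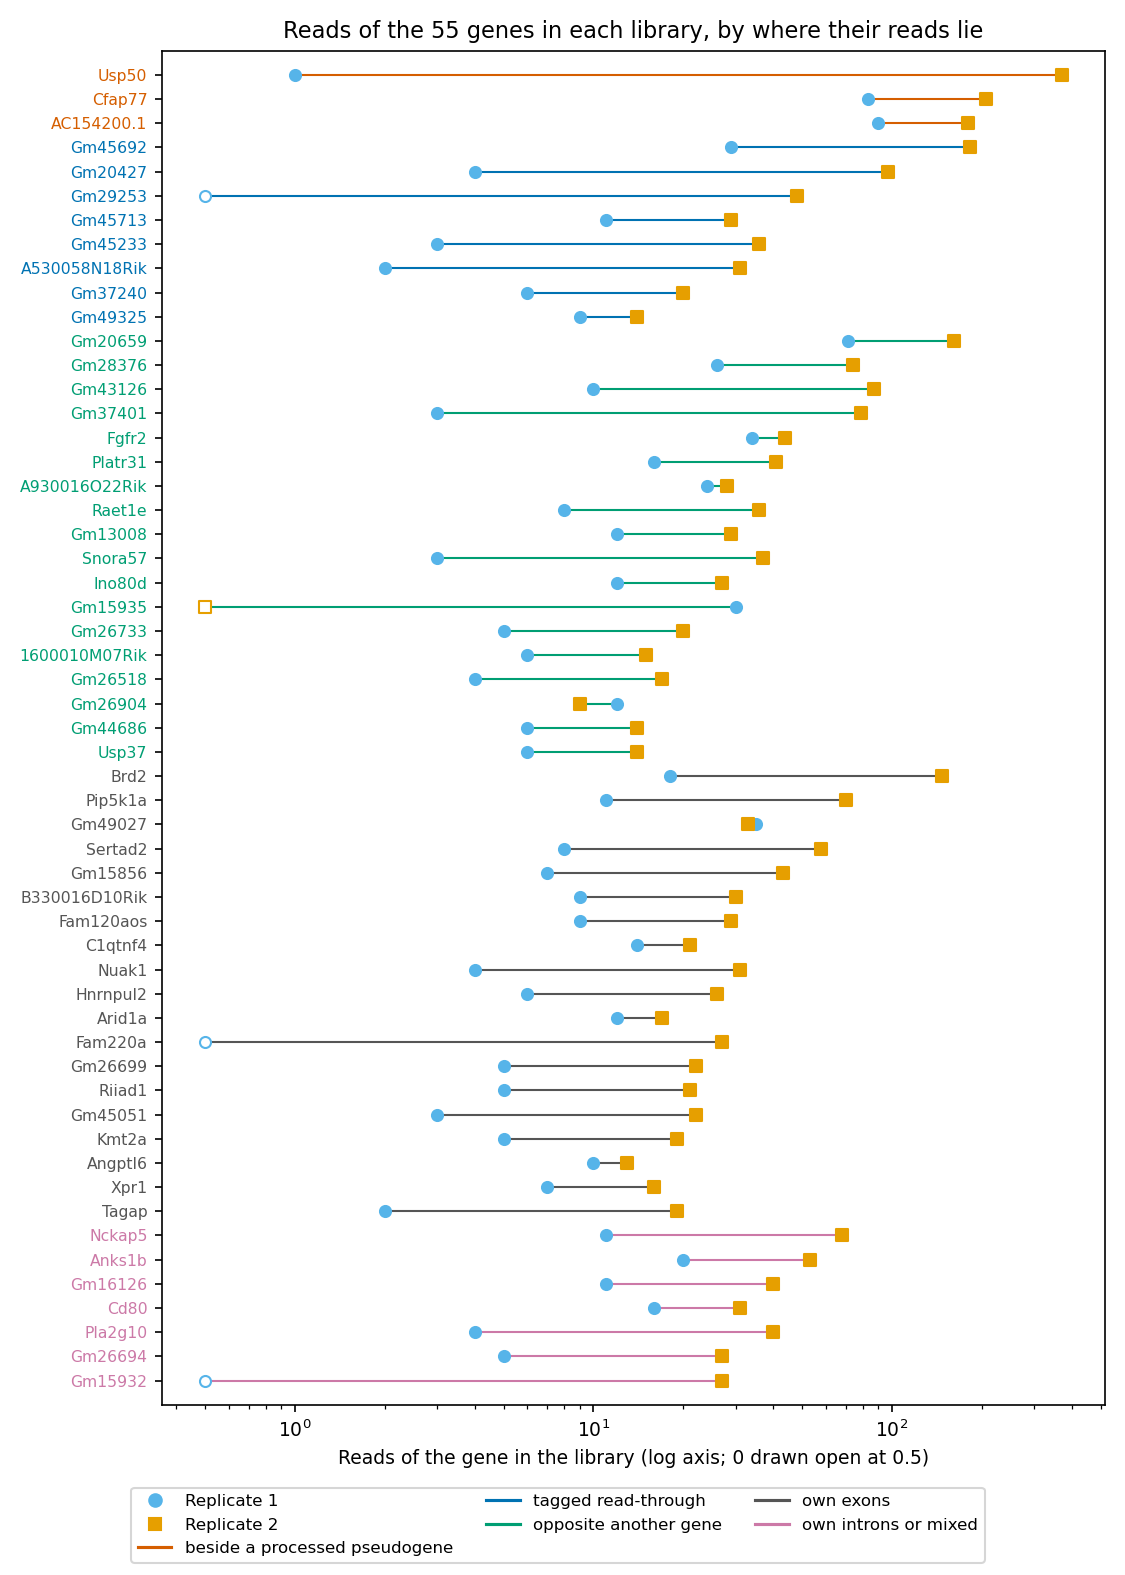
Reads of each of the 55 genes in replicate 1 (circles) and replicate 2 (squares) on a log axis, with genes listed by where their reads lay and a line joining the libraries; open symbols at 0.5 stand for 0 reads. Usp50, with 1 and 371 reads, has the longest line among the genes read in both libraries, and Gm15935 runs the other way with 30 and 0.

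The annotation offered most of these genes a chain to complete. The transcript with most exons had a median of 6 exons in the members and 9 in the other genes, and the median length of the longest transcript was 1841 and 3057 bases. Gene spans were similar at 19.5 and 20.5 kb. Only Snora57, a small nucleolar RNA of the kind that guides chemical modification of ribosomal RNA, had single-exon transcripts alone, as did 212 of the other genes. For that gene a complete chain has no intron to follow.

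Few annotated introns of these genes were crossed by their own reads. Of 521 annotated introns, 56 (10.7%) were spanned by reads given to the member, in 9 genes, and 111 were spanned when reads of any gene were counted. Arid1a, a subunit of a chromatin remodelling complex, held 18 spanned introns of 23, and Brd2, a chromatin reader that binds acetylated histones, 13 of 24. Gm45713 followed with 6 of 12 and Riiad1 with 5 of 8. Kmt2a, a histone methyltransferase with 41 annotated introns, had 4 spanned, by 1 ISM read of replicate 2. The Brd2 introns also rested on few reads, 3 ISM reads in each library. Riiad1, Arid1a and Kmt2a were picked out after their values were seen.

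The places of member reads were set beside those of the incomplete reads of other genes. A model took the first place, in a fixed order, that covered 50% or more of it. The order was own exons, exons of another same-strand gene, exons of an opposite-strand gene and the rest of that gene's span. Own-exon models that a same-strand gene also covered by 50% or more were kept apart. A model in own exons could still lie opposite another gene's exon, as that of Gm26699 did opposite Luc7l2. A model is the interval in the authors' file and not the length of its reads. Models inside the member's own exons held 17.7% of member reads in replicate 1 and 34.2% in replicate 2, against 94.0% and 94.1% of the ISM and Genomic reads of the other genes. Of the 990 such member reads in replicate 2, 366 lay in 1 model of Usp50, which had 0 reads in replicate 1. Restricted to Genomic reads, the other genes had 80.9% and 88.6% in their own exons and the members 11.9% and 32.9%. Models opposite an exon of another gene took 19.0% and 14.0% of member reads, and models opposite an intron 18.2% and 11.7%. A further 33.3% and 23.9% lay in the member's own introns or were mixed. No source used here says how strand was assigned to each read, so reads of a gene and of its antisense partner cannot be told apart.

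**Figure D2:**
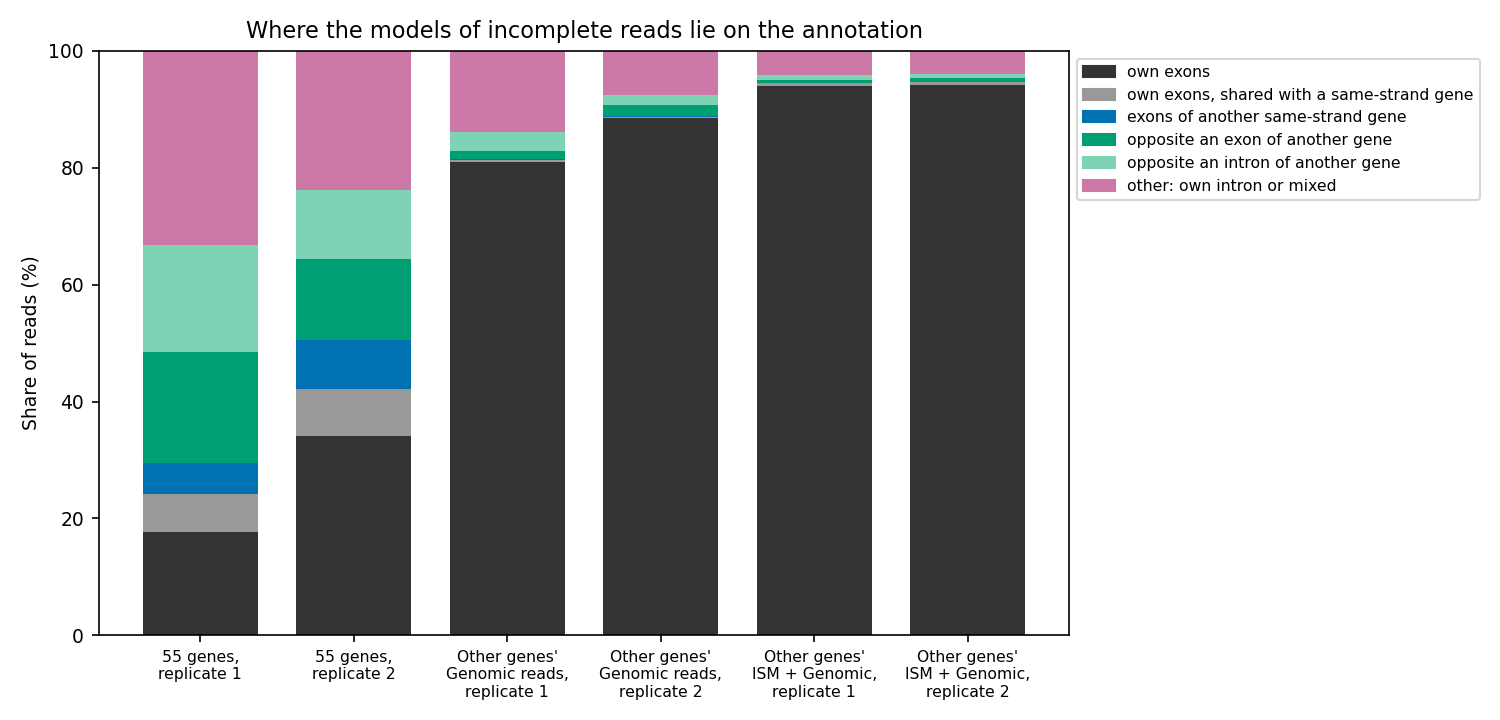
Stacked bars give the share of reads (%) by the place of their model, for the 55 genes, for the Genomic reads of the other genes and for the ISM and Genomic reads of the other genes, each in replicate 1 and replicate 2. Own exons take 17.7% and 34.2% of the reads of the 55 genes and 94.0% and 94.1% of the incomplete reads of the other genes.

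Reads in single-exon models made up 88.9% and 91.0% of member reads, 27.5% and 41.1% of the incomplete reads of other genes, and 99.1% and 99.5% of the Genomic reads of other genes. Models whose 3′ end lay within 50 bases of an annotated 3′ end of the gene held 15.7% of member reads in replicate 1 and 36.0% in replicate 2. The Usp50 model with 0 and 366 reads was among them. The same share was 88.2% and 81.3% over incomplete reads of the other genes, and 74.8% and 78.7% over their Genomic reads. At the 5′ end the members' shares were 7.86% and 3.56%.

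Overlap with neighbours was frequent. On the same strand, 28 of the 55 genes (50.9%) overlapped the span of another annotated gene, against 22.5% of the other genes, and 50 (90.9%) overlapped one on either strand, against 56.1%. Exons of the 2 genes overlapped on the same strand for 14 members (25.5%), against 8.55%. A same-strand neighbour that itself had 20 or more reads was found for 14 members and for 131 of the 6565 other genes (2.00%). On the opposite strand such a neighbour lay over 21 members (38.2%) and over 13.8% of the others.

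The 55 genes were placed in 5 groups by where their reads lay, a division made after the values were seen. The 3 genes beside a processed pseudogene were set apart first, and then the 8 with the catalogue's read-through tag, wherever their reads lay. Of the remaining genes, 18 had most of their reads opposite another gene, 19 in their own exons, and 7 in their own introns or in no single place. In 43 members 1 model held at least 90% of the reads of at least 1 library. Of the 51 members read in both libraries, the most read model was the same interval in 16, overlapped in 28 and lay apart in 7.

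The pseudogene group held 174 reads in replicate 1 and 758 in replicate 2, all Genomic and 22.8% and 26.2% of the members' reads. Each leading model began on the last base of the pseudogene, on its strand, and ran downstream of it.

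Usp50 (ENSMUSG00000027364.14), a gene of the ubiquitin-specific protease family, had 1 read in replicate 1 and 371 in replicate 2. Its leading model, chr2:126709096-126709354 on the minus strand, covered 259 bases in the last exon of Usp50 and held 0 and 366 reads. The pseudogene Gm10774 at chr2:126709354-126709557 ended where the model began and had 102 and 81 reads, all complete. Replicate 2 therefore had reads on both annotations and replicate 1 on the pseudogene alone: Usp50 took 0% of the reads of the pair's models in replicate 1 and 81.9% in replicate 2.

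Gm10774 was 99.5% identical to Polr2l, which encodes a small subunit shared by the RNA polymerases, over all 204 of its bases. Polr2l is on chromosome 7 and had 164 and 519 reads, of which 109 and 350 were Genomic. Of the 259 bases of the Usp50 model, 169 matched Polr2l with 100% identity, so reads of these copies are uncertain.

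Cfap77 (ENSMUSG00000079502.8), named for a protein of cilia and flagella, had 83 and 207 reads. The leading model, chr2:28933430-28933610, lay in a Cfap77 intron directly downstream of Gm13394 and held 83 and 206 of them. Gm13394, at chr2:28933610-28934609, had 179 and 279 reads, and Cfap77 took 31.7% and 42.5% of the reads of the pair. The pseudogene matched Gapdh, the glycolytic enzyme, over 1000 bases at 99.9%. Gapdh had 61 and 80 reads, while 17 of 65 pseudogenes in the matched Gapdh family had reads, 4847 and 5969 in all, so the split among these copies is uncertain.

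AC154200.1 (ENSMUSG00000116590.1), a lincRNA, had 90 and 180 reads, all in the model chr17:17345177-17345456. The neighbouring Oaz1-ps, chr17:17345456-17346140, had only 2 and 1 reads, so that the lincRNA took 97.8% and 99.5%. Oaz1-ps was 99.7% identical over its 685 bases to Oaz1, an inhibitor of the enzyme that starts polyamine synthesis, which had 1252 and 2884 reads. In this pair both libraries placed nearly all reads downstream of the pseudogene.

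**Figure D3:**
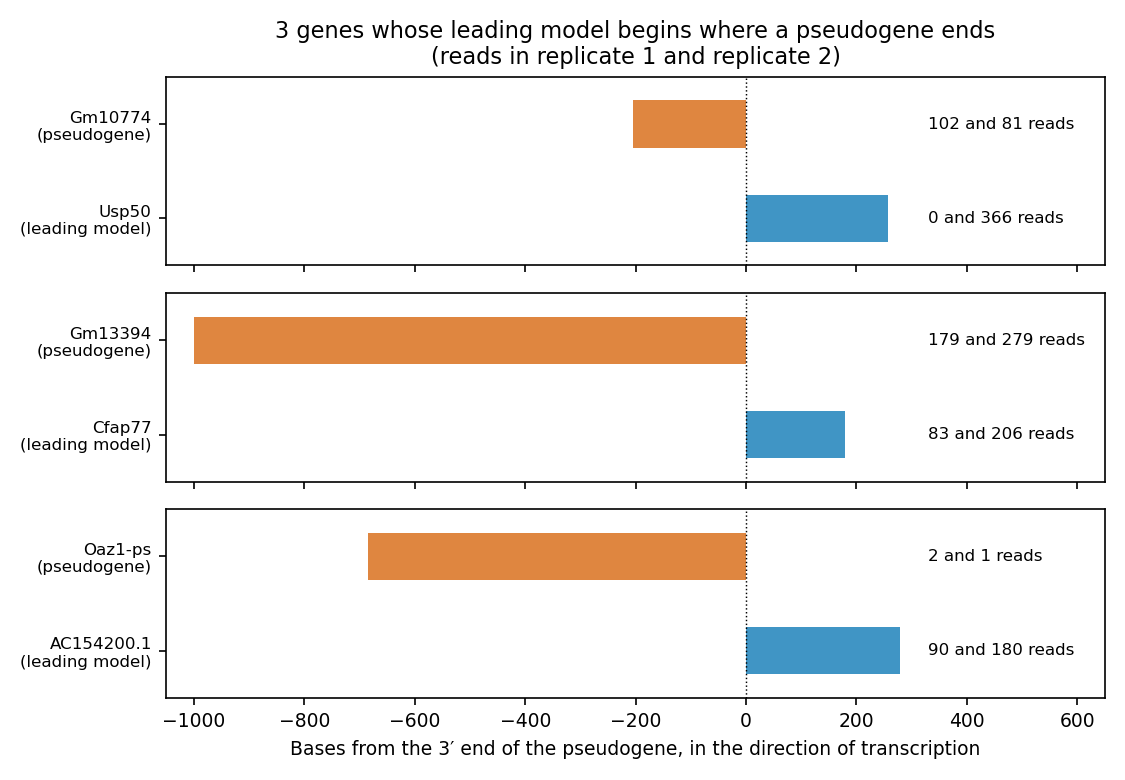
Each panel draws a pseudogene (upper bar) and the leading model of its neighbour among the 55 genes (lower bar) by distance in bases from the pseudogene's 3′ end in the direction of transcription, with reads in replicate 1 and replicate 2 beside each bar. All 3 models begin at 0, where the pseudogene ends, and extend 258, 180 and 279 bases beyond it.

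Read-through genes made up 8 of the 55 (14.5%) and 17 of the 6565 others (0.259%). They had 64 reads in replicate 1 and 457 in replicate 2, or 8.39% and 15.8% of the members' reads. Their annotated introns fall into those that a component gene also has and those annotated in the read-through gene alone. Of 66 shared introns 57 were spanned by reads of some gene, and of 15 introns of their own 1 was. That intron, chr3:85817292-85887126 in Gm37240, was crossed by 39 and 19 reads given to other genes or loci.

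The exon joints of 4 of these genes are shown because an own joint sets a read-through chain apart from the component gene's. In Gm20427 the own joint belongs to only 1 of its 2 annotated transcripts. The other transcript has 10 introns, all shared with Slc39a7 or H2-Ke6, so no joint of its own sets it apart. Each line gives the last 15 bases of the upstream exon in lower case and the first 15 of the next exon in capitals, from GENCODE M21 on mm10.
Gm45692, joint of its own: gacatctcttttgtgGTTTCCTCTTACTCG
Gm45692, joint shared with Rnf170: ttccaaacagaacagGATGTCCCTGCTCCT
Gm20427, joint of its own: cagtcactgttggagGTGCGGGTAGCGGCA
Gm20427, joint shared with H2-Ke6: ccgtggaagtcagtgGAGGTCTTTTCATGT
Gm45233, joint of its own: ctgcccaacatcatgGAAGCTAAGCAACCA
Gm45233, joint shared with Etfb: ctggactggccgcagGGTACATTCGCCTCT
Gm49325, joint of its own: gacactccagcccagAATTAACCCTGAATC
Gm49325, joint shared with Sumo3: tactgtgagaggcagGGCTTGTCAATGAGG

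None of these 4 own joints was crossed by a read in either library. They span the introns chr8:26129156-26160774, chr17:34027841-34028852, chr7:43456638-43463136 and chr10:77614052-77630725. For Gm20427 this says nothing of the transcript without a joint of its own. The shared joints were crossed by 33 and 15 reads for Rnf170, 37 and 139 for H2-Ke6, 255 and 567 for Etfb and 47 and 44 for Sumo3, counted over the reads of all genes. Of the 139 reads, 87 were given to Gm20427 itself. Rnf170 and H2-Ke6 encode an E3 ubiquitin ligase and a hydroxysteroid dehydrogenase, Etfb a subunit of the electron transfer flavoprotein, and Sumo3 a small ubiquitin-like modifier. The upper limit that 0 reads allows is 3 reads per library.

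Gm45692 (ENSMUSG00000109850.1) was the most read of this group, with 29 and 182 reads. Its leading model, chr8:26142648-26143871, was a single interval of 1224 bases inside an exon of Rnf170 and held 29 and 179 reads. Rnf170 itself had 33 and 16 reads. The read-through gene thus had fewer reads than Rnf170 in replicate 1 and more in replicate 2, and its reads crossed none of its introns.

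Gm20427 (ENSMUSG00000092595.2) had 4 and 97 reads, 87 of the latter in a spliced ISM model of 2 exons at chr17:34026034-34026758. The same interval with the same intron was given to H2-Ke6 in replicate 1, with 14 reads. Gm29253 had a like case: the 7-base model chr1:75180860-75180866 was given to Atg9a, a lipid scramblase of autophagy, in replicate 1 with 14 reads and to Gm29253 in replicate 2 with 48. Of 21583 models that were equal in both libraries and lay in an annotated gene in at least 1 of them, 23 were given to different genes, and 2 of the 23 involved a member, the ones just described.

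Reads of any gene across the shared introns were summed for the other read-through genes. For Gm29253 the shared introns, also annotated in Abcb6 and Atg9a, were crossed by 1472 and 1236 reads when summed over introns. For Gm45713, which shares introns with Rpl13a and Flt3l, the sums were 656 and 1682, and for Gm45233 963 and 2137. For Gm49325, which shares introns with Sumo3 and Ube2g2, they were 414 and 445. A530058N18Rik, with 2 and 31 reads of its own, had 0 of its 6 shared introns crossed. It lies opposite Actc1, the cardiac actin gene, which had 128 and 428 reads.

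**Figure D4:**
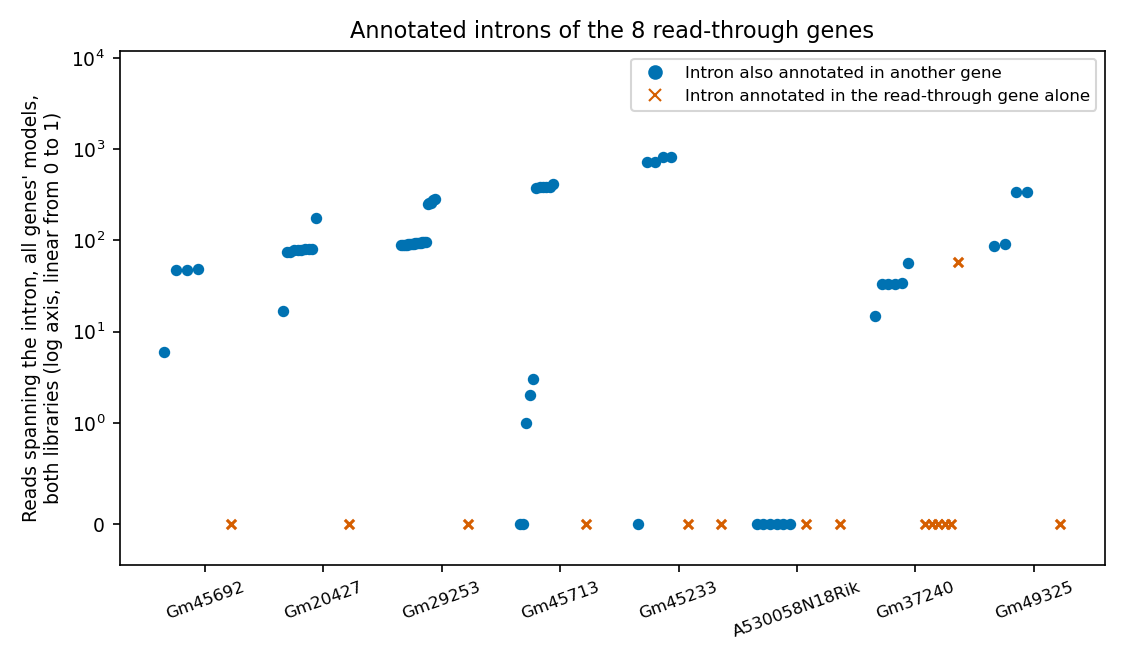
Points give the reads spanning each annotated intron of the 8 read-through genes, counted over the models of all genes and both libraries on a log axis that is linear from 0 to 1; blue circles are introns also annotated in another gene and orange crosses introns annotated in the read-through gene alone. Of the circles 57 of 66 lie above 0, and of the crosses 1 of 15, in Gm37240.

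Across all 55 genes, spliced reads were few, 85 in replicate 1 and 260 in replicate 2. Those whose introns all belonged to 1 other annotated gene were 44 (51.8%) and 149 (57.3%), a mean of 54.5% ± 3.92 (SD, n = 2). Spliced ISM reads were 35 and 33 in Gm49027, 9 and 29 in Gm45713 and 0 and 87 in Gm20427. The leading models of these genes overlapped exons of Diablo, Rpl13a and H2-Ke6 on the same strand. The members' share thus rests on few of the 55 genes. Among spliced incomplete reads of the other genes the share was 0.256% and 0.301%. These shares describe genes chosen for incomplete reads and were not tested.

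The group opposite another gene was the largest in reads in replicate 1, with 288 reads (37.7% of the members'), and held 732 (25.3%) in replicate 2, all Genomic. It comprised 10 antisense genes, 3 lincRNAs, 4 protein-coding genes and Snora57. For 7 of the 18, the leading model lay opposite exon sequence of the other gene over its whole length. In 4 of the 18 it began within 10 bases of that gene's annotated 3′ end, and in 7 an end lay within 10 bases of one of its exon edges.

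Gm20659 (ENSMUSG00000093467.1), an antisense gene, had 71 and 161 reads, all in the model chr11:101971649-101972950 on the plus strand. All 1302 bases lay opposite an exon of Dusp3, a dual-specificity phosphatase with 81 and 106 reads. Only 16.2% of them lay in Gm20659's own exons, and the model ended 1091 bases past its annotated 3′ end. The antisense gene had fewer reads than Dusp3 in replicate 1 and more in replicate 2.

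Gm43126 (ENSMUSG00000107379.1) lay opposite Ccnd2, a D-type cyclin of the cell cycle, with the model chr6:127125784-127128827 of 3044 bases wholly opposite its exon. Of this model 12.2% lay in Gm43126's own exons, and it ended 2672 bases past the antisense gene's annotated 3′ end. The antisense gene had 10 and 87 reads and Ccnd2 9 and 15. In replicate 1 the pair was about even and in replicate 2 the antisense gene was the higher.

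The leading model of Gm37401 (ENSMUSG00000104208.1), chr9:108337412-108337934, began on the last annotated base of Rhoa, a small GTPase that controls the actin cytoskeleton. Of its bases 0.19% lay in Gm37401's own exons. Gm37401 had 3 and 79 reads against 59 and 78 for Rhoa. The leading models of Gm13008 and Gm26733 began likewise at the annotated ends of Eloa and Zfp266, and that of Gm26904 at the end of Rpl7l1. For Gm26733 and Gm26904 these models held only 12 and 3 reads in replicate 2, and the most read model of replicate 1 lay apart. Gm13008, Gm26733 and Gm26904 were picked out after their values were seen.

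Other antisense members lay mainly opposite introns. Gm28376 (ENSMUSG00000101640.1) had 26 and 74 reads opposite Jph1, a protein of the muscle triad that holds the surface membrane to the sarcoplasmic reticulum. Of these reads 90% lay opposite an intron and 10% opposite an exon, with a leading model at chr1:17082461-17087072. Jph1 had 126 and 115 reads. Platr31, named here after its values were seen, lay opposite an intron of Tigar with 16 and 41 reads.

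A930016O22Rik, also named after its values were seen, had 24 and 28 reads opposite Ckm, the muscle creatine kinase, which had 64103 and 108494. Its leading model, chr7:19420454-19422463, was 62.5% opposite Ckm exon sequence. The antisense reads were far fewer than those of Ckm in both libraries.

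Fgfr2, a fibroblast growth factor receptor, had 34 and 44 reads spread over its annotated span, chr7:130162451-133123350. Of these reads 84.6% lay opposite another gene, and Tacc2, which had 101 and 101 reads, was the most read gene there on the other strand. The most read Fgfr2 model held only 7 reads in each library and lay apart in the 2 libraries. Gm15935 was the only member read in replicate 1 alone, with 30 and 0 reads at chr14:21741565-21748446, opposite Dusp13 with 247 and 217. Snora57 had 3 and 37 reads in a spliced model of 104 bases in 2 exons at chr19:8888389-8888774. The annotated snoRNA lay wholly in the intron of that model, so none of its bases were in the model. Lbhd1, the gene on the opposite strand, had no reads. The rest of the group had 20 to 44 reads over both libraries. The highest was Raet1e, a ligand of an activating receptor of natural killer cells, with 8 and 36 reads. Its 7488-base model chr10:22285876-22293363 held 8 and 35 of them, and the gene was picked out after its values were seen.

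Genes read in their own exons numbered 19, with 170 and 664 reads (22.3% and 22.9% of the members'), and 14 were protein-coding. In 15 of them the leading model ended exactly on an annotated 3′ end, and in 12 all reads lay in single-exon models.

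Brd2 (ENSMUSG00000024335.20) had 18 and 147 reads, all in models that ended within 50 bases of an annotated 3′ end. In replicate 2 144 of them lay in a 341-base model, chr17:34112023-34112363, and in replicate 1 15 lay in an 8-base model at the same end. C1qtnf4 (ENSMUSG00000040794.5), a secreted protein of the C1q and tumour necrosis factor family, had 14 and 21 reads in a 1146-base model of its last exon. Hnrnpul2, an RNA-binding nuclear protein, had 6 and 26 reads in a 2689-base model. In these 3 genes the leading model was a single exon that ended on an annotated 3′ end. Among genes picked out after their values were seen, Sertad2, with 8 and 58 reads, and Xpr1, a phosphate exporter, with 7 and 16, also had single-exon models that ended there. Angptl6, with 10 and 13 reads, and Riiad1, with 5 and 21, had spliced reads alone, all ISM.

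Models in this group could be extremely short as deposited. Pip5k1a (ENSMUSG00000028126.16), a kinase that makes the signalling lipid phosphatidylinositol 4,5-bisphosphate, had 11 and 70 reads, and its leading model, chr3:95058545-95058569, was 25 bases long. The leading models of Nuak1 and Gm15856, named after their values were seen, were 1 base long. In 4 members the leading model was under 50 bases. Reads in such models made up 3.93% and 6.52% of member reads, 1.69% and 6.50% of the incomplete reads of other genes, and 9.19% and 22.7% of the Genomic reads of other genes.

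Some genes here share their exons with another annotation. Gm49027 had 35 and 33 reads, all ISM in 1 spliced model that overlaps Diablo, a mitochondrial protein that promotes apoptosis, with 98 and 164 reads. Fam220a (ENSMUSG00000083012.9) had 0 and 27 reads under this identifier, while a second identifier with the same symbol had 62 and 53. Tagap, picked out after its values were seen, had 2 and 19 reads. Its 19 reads in replicate 2 lay in a model 99.3% identical over 2015 bases to Tagap1, which had 23 and 65 reads, and its 2 reads in replicate 1 in a separate model of 190 bases. For these genes the split between annotations is uncertain. B330016D10Rik, the only gene typed as a pseudogene, had 9 and 30 reads, and Fam120aos, a lincRNA, 9 and 29, both away from any overlapping annotated gene.

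The last group of 7 genes had reads in their own introns or in no single place, 67 and 286 in all and all Genomic. Nckap5 (ENSMUSG00000049690.15) had 11 and 68 reads, with an 84-base leading model at chr1:126708474-126708557 inside an intron. Anks1b (ENSMUSG00000058589.14), a postsynaptic scaffold gene in neurons, had 20 and 53 in the 322-base model chr10:89878250-89878571. Cd80, a costimulatory ligand of antigen-presenting cells, had 16 and 31 reads, with a leading model at chr16:38492862-38498766. That model was 31.3% in the gene's own exons and ended 2431 bases past its annotated 3′ end. Gm15932 had 0 and 27 in a 113-base model, chr14:55574247-55574359. Gm26694 had 5 and 27, of which 34.4% lay opposite other genes. A few short intervals thus held most reads in Nckap5, Anks1b and Gm15932, and none of the 3 lay at an annotated end. Pla2g10, a secreted phospholipase, had 4 and 40 reads with a 169-base leading model, and Gm16126 had 11 and 40 with one of 176 bases. Both were picked out after their values were seen.

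Reads per library were then compared. The read minimum uses the sum of the same 2 counts, and by the same rule replicate 2 alone gave 57 genes and replicate 1 alone 13. The direction of the count below and of each gene's ratio is therefore partly set by the choice and is given as a description. Gm29253, Fam220a and Gm15932 had no reads in replicate 1 and reached the minimum through replicate 2 alone. Gm15935 reached it through replicate 1 alone. Usp50, Gm37401 and Gm20427, with 1, 3 and 4 reads in replicate 1, passed the minimum by their replicate 2 reads, as did further members. Their ratios and p-values below are descriptions under the same limit. By Fisher's exact test of a gene's reads against the rest of the library, adjusted by Benjamini-Hochberg over 8892 annotated genes with 10 or more reads, 28 of the 55 (50.9%) had an adjusted p under 0.05. Of these 27 were higher in replicate 2 and 1, Gm15935, in replicate 1. Over all genes tested 26.0% were called, 11.1% higher in replicate 2 and 14.9% higher in replicate 1. Among the 5915 autosomal genes with as many reads as the members the shares were 26.5%, 10.1% and 16.4%. The median log2 ratio of replicate 2 over replicate 1, on the CPM scale with 0.5 reads added, was 1.28 over the members and -0.18 over all genes, and 48 members were above 0.

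The Genomic class as a whole was also higher in replicate 2. Its 23475 and 83795 reads gave a log2 ratio of 1.29 between the libraries, and the members' summed reads gave 1.38, or 1.19 without Usp50. When Genomic reads alone were compared with each library's Genomic total, 15 of 46 members tested passed, 8 higher in replicate 2 and 7 higher in replicate 1, beside 25.3% of all genes so tested. The members' median was then -0.05, against -0.12 over all genes. What part the class total has in each gene's difference was not tested further.

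**Figure D5:**
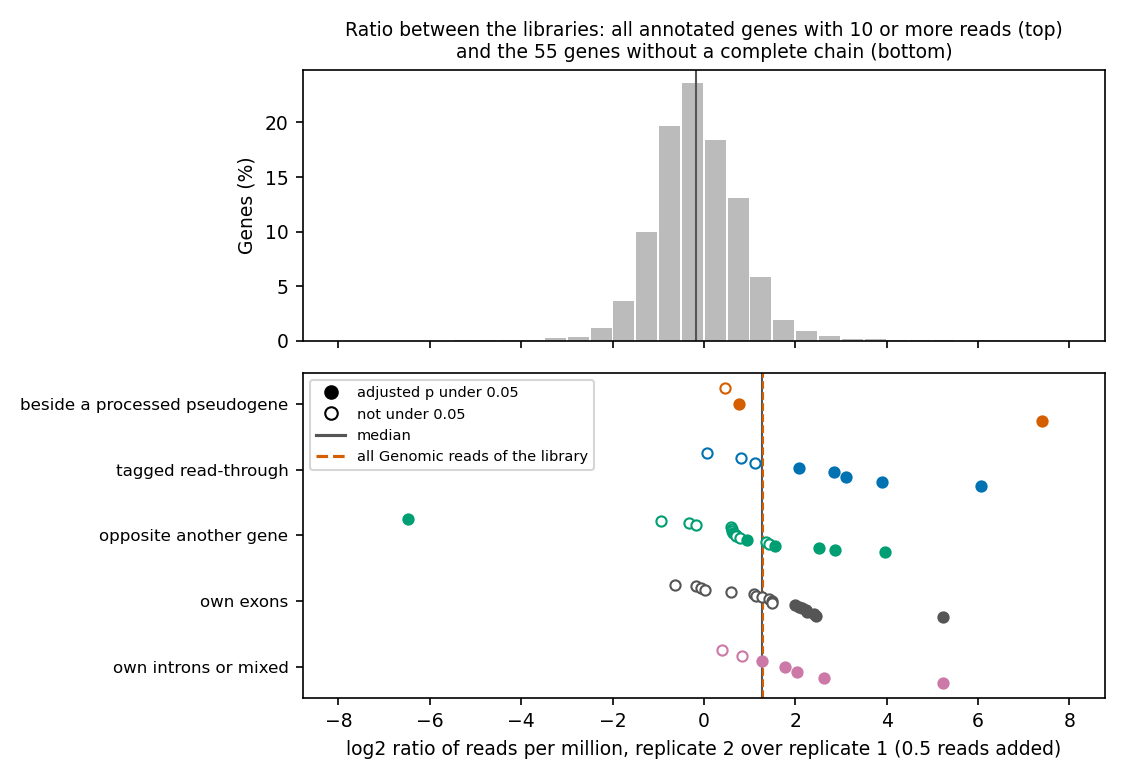
The upper panel is a histogram of the log2 ratio of CPM (replicate 2 over replicate 1, 0.5 reads added) over all annotated genes with 10 or more reads, as a percentage of genes, with its median at -0.18; the lower panel shows the 55 genes by group, filled where the adjusted p was under 0.05, with their median at 1.28 and the ratio of all Genomic reads at 1.29 dashed. Most of the 55 points lie to the right of 0, and Gm15935 lies far to the left.

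Usp50 differed most. Its 1 and 371 reads gave a ratio of 255 (95% counting interval 45.5 to 10091) and a Benjamini-Hochberg adjusted Fisher's exact p of 1.92e-80. When all same-strand reads over its leading model were counted whatever gene they were given to, the libraries had 102 and 447 reads, a log2 ratio of 1.58 with an adjusted Fisher's exact p of 9.49e-27. Of these, 102 and 81 were reads of Gm10774, which met the Usp50 model only at the pseudogene's last base. The count thus joined both adjoining annotations, and the pair was higher in replicate 2 by far less than Usp50 alone. For Cfap77 the log2 ratio was 0.77 (95% interval 0.40 to 1.16, adjusted Fisher's exact p = 0.000206). For its locus, joined with Gm13394 in the same way, it was 0.35 (adjusted Fisher's exact p = 0.00995). On Genomic reads alone Cfap77 was lower in replicate 2, at -0.52 (adjusted Fisher's exact p = 0.0296), and by edgeR's exact test with a fixed dispersion of 0.04 it did not pass (adjusted p = 0.434). AC154200.1, at 0.45 (0.09 to 0.84), did not pass (adjusted Fisher's exact p = 0.0507), and on Genomic reads alone it was lower, at -0.84 (p = 0.000148).

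Among read-through genes 5 of 8 were higher in replicate 2 and none in replicate 1, beside 11.1% and 14.9% of all genes tested. The counts by group share the limit of the choice given above and were not tested. Gm45692 had a log2 ratio of 2.09 (95% interval 1.54 to 2.73) and Gm20427 one of 3.90 (2.66 to 5.96), with adjusted Fisher's exact p of 6.1e-16 and 4.97e-16. Counted over the locus, these ratios were 1.27 and 1.22. Gm29253, with 0 and 48 reads, was at least 11.0-fold higher in replicate 2 (floor of 3 reads in the library without reads). Its locus, with 162 and 184 reads, gave a log2 ratio of -0.36 that did not pass (adjusted Fisher's exact p = 0.0744), so the call for this gene held only for the reads under its name.

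Opposite-strand genes were called in 7 of 18 cases, 6 of them higher in replicate 2, beside 26.0% and 11.1% of all genes tested. Gm43126 had a log2 ratio of 2.52 (1.63 to 3.69) and Gm37401, with 3 reads in replicate 1, a ratio of 18.1 (95% counting interval 5.97 to 89.6). Gm20659 was at 0.63 and Gm28376 at 0.95, with adjusted Fisher's exact p of 0.00946 and 0.0153. On Genomic reads alone Gm20659 was lower in replicate 2, at -0.66 (adjusted Fisher's exact p = 0.0099), and Gm28376 was at -0.34, and at the fixed dispersion neither passed (adjusted p = 0.569 and 0.397). Fgfr2 did not pass at -0.17 (95% interval -0.85 to 0.52). Gm15935 was at least 14.6-fold lower in replicate 2, but its locus, where an unannotated locus held reads, had 31 and 18 reads and a log2 ratio of -1.31 (adjusted Fisher's exact p = 0.0109).

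In own exons 9 of 19 genes were higher in replicate 2 and none in replicate 1, beside 11.1% and 14.9% of all genes tested. Brd2 had a log2 ratio of 2.45 (1.78 to 3.28). Without models under 50 bases it was 4.87, but this leaves out 15 reads of replicate 1 in an 8-base model. That model ended at the same annotated end as the 341-base model of replicate 2. Pip5k1a, with all its reads in models under 50 bases, was at 2.07 (1.20 to 3.19). On Genomic reads alone Pip5k1a was at 0.78 and did not pass (adjusted Fisher's exact p = 0.2). Gm49027 was at -0.63 (95% interval -1.36 to 0.10), and C1qtnf4 at 0.03, with 13.3 ± 0.280 CPM (SD, n = 2), and neither passed. Fam220a was at least 6.18-fold higher in replicate 2, while reads over its leading model under both identifiers were 55 and 73, a log2 ratio of -0.14 that did not pass. Of the last group 5 of 7 were higher in replicate 2 and none in replicate 1, beside the same shares over all genes. Among them were Nckap5 at 2.03 (1.16 to 3.15) and Gm15932, at least 6.18-fold higher but chosen through its replicate 2 reads alone. On Genomic reads alone Nckap5 was at 0.74 and did not pass (adjusted Fisher's exact p = 0.233). Anks1b at 0.84 and Cd80 at 0.39 did not pass.

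The split between ISM and Genomic reads could be tested in 9 members that had both, of which Fam220a had no reads in replicate 1. It differed between the libraries in 3 by Fisher's exact test with Benjamini-Hochberg adjustment, beside 25.8% of the 1459 genes tested. Gm15856 was 0% Genomic in replicate 1 and 100% in replicate 2 (adjusted p = 1.49e-07), on a model of 1 base. Gm20427 went the other way, from 100% of only 4 reads to 10.3% (adjusted Fisher's exact p = 0.00156). Its ISM model of replicate 2 was given to H2-Ke6 in replicate 1, with 14 reads, so this change depends on the gene named. Tagap went from 100% of only 2 reads to 0% (adjusted Fisher's exact p = 0.0212). Brd2, at 83.3% and 98.0%, did not pass (adjusted Fisher's exact p = 0.0656).

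At the edges of the choice, Gm44686 and Usp37 had 20 reads each and 1600010M07Rik 21. Cd27, Epo and Fancd2 fell just below the minimum with 19 reads and no complete one. On the other side, the genes with the smallest share of complete reads above 0 were Tsc1 with 2 of 490 (0.408%), Ndufa13 with 11 of 2454 (0.448%) and Plec with 3 of 571 (0.525%).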

How the data were processed

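The authors deposited whole-number read counts per transcript model for each library, with models whose source field names TALON, made from alignments to mm10 with GENCODE M21, per the notes deposited with each library. No source used here gives the aligner, its version, the read filters or how strand was set. The libraries were processed separately. Totals leave out spike-ins. Members and lists were chosen with earlier results of these data known.

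Model places, ends and introns were computed from the deposited models with Python 3.11.15, pandas 2.3.3, numpy 2.4.6 and SciPy 1.17.1. A model end counted as annotated within 50 bases. Copies were sought with BLAST 2.17.0 (95% identity or more, 50% cover or more). Counts were compared by Fisher's exact test, two-sided, with Benjamini-Hochberg adjustment over all annotated genes with 10 or more reads, a step tested on simulated data. Intervals are exact at 95% and cover counting error only. Alternatives used edgeR 4.0.16 and DESeq2 1.42.0 in R 4.3.3: other scaling, other minima, a fixed dispersion, and other sets of reads.

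Named genes were the 15 most read members, the 3 most read of each gene type, the 5 largest ratios each way among those called, the 3 most read wholly ISM, wholly Genomic, opposite, same-strand and isolated members, their most read overlapping gene, and the 3 on each side of the thresholds. Others are said to have been picked after their values were seen. Since the series has 1 group, no conditions were compared.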

Additional observations from a re-analysis of the deposited data

Results flagged for a closer look

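Off the autosomes 2 annotated genes met the same read minimum with no complete read, and their reads entered no comparison above. Gm6829, a processed pseudogene on chromosome X, had 38 reads, 38 in replicate 1 and 0 in replicate 2. Tsix, the antisense gene of Xist on chromosome X, had 24 reads, 2 in replicate 1 and 22 in replicate 2. Both are above the 3 reads that a count of 0 allows.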

How the results depend on the processing

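The number of genes without a complete chain, 55, was 135 with a minimum of 10 reads, 27 with 40 reads, 205 when Known reads alone counted as complete, 100 when up to 5% complete reads were allowed and 57 over all chromosomes. From 1 library alone it ranged from 13 (without replicate 2) to 57 (without replicate 1). The 28 genes that differed between libraries were 4 of 11 tested without Genomic reads, 17 by edgeR's exact test with a fixed dispersion of 0.04, 15 on Genomic reads alone (8 higher, 7 lower in replicate 2), 32 with TMM or DESeq2 scaling, which moved every log2 ratio by 0.18, 29 at 20 reads, 27 with no filter, 26 by locus and 25 without models under 50 bases. The 28 same-strand overlaps were 14 by exons, 14 with protein-coding genes, 14 with genes of 20 or more reads and 50 on either strand. The median of the genes' Genomic shares was 100%, and the mean share was 86.8% without the most read member. Between libraries the shares ranged from 86.1% to 89.2% (Genomic), 51.8% to 57.3% (introns of another gene) and 15.7% to 36.0% (annotated 3′ end, 25.9% ± 14.4 SD, n = 2). On Genomic reads alone the log2 ratio changed sign and passed for Cfap77 (-0.52), AC154200.1 (-0.84) and Gm20659 (-0.66). It changed sign without passing for Gm20427 (-0.61), Gm28376 (-0.34), Anks1b (-0.45), Cd80 (-0.90), Gm44686 and Usp37 (-0.68 each), 1600010M07Rik (-0.58) and B330016D10Rik (-0.15), by locus for Gm29253 (-0.36), Fam220a (-0.14) and Gm49027 (0.023), and for Fgfr2 with TMM (0.0083) and DESeq2 scaling (0.0046). The cause was not tested. Over 30 named members and 238 alternative values, 201 kept direction and call, 12 lost the call, 9 gained it and 16 changed sign. Locus counts, Genomic reads alone and the removal of short models were chosen after seeing the data. Leaving out a library leaves no test. No paired analysis was possible because the series has 1 group. The check for A-rich sequence after model ends was not run, as no genome sequence was used here. Depth limits any gene under 3 reads in a library.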
